A study of Mus musculus with 2 samples.

Results

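The expression of 5 genes, of the 27998 in the count table, was followed through fetal liver erythropoiesis. They were chosen by symbol: Nr3c1, which encodes the glucocorticoid receptor, Tsc22d3, a gene that the activated receptor induces in many tissues, and Zfp36, Zfp36l1 and Zfp36l2, which encode a family of RNA-binding proteins. All 5 symbols were found in the table. Livers of 7 C57BL/6 mouse embryos at e13.5 were pooled, and the cells were stained with 10 barcoded antibodies, of which 1 was a non-specific IgG, and sequenced as 1 CITE-seq experiment, in which a cDNA library and an antibody library are read from the same droplets. Cells carrying Ter119, a surface antigen of late erythroid cells, were first depleted and an equal number of Ter119+ cells was then added back, so the number of cells in a stage does not reflect the composition of the liver. The labels name no treated or mutant group. The question was how the levels of these genes differ between stages set by Ter119 and CD71, and between erythroid and non-erythroid cells of the same livers.

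The glucocorticoid receptor rests in the cytoplasm with chaperones of the Hsp90 and Hsp70 families, and on binding hormone it moves to the nucleus and activates or represses genes. In erythroid progenitors, and in the burst-forming unit BFU-E in particular, glucocorticoids are known to favour self-renewal over maturation. Proteins of the Zfp36 family bind AU-rich elements in the 3′ untranslated regions of mRNAs and recruit the deadenylases and decapping enzymes that degrade them. Zfp36l2 is known to be required for the self-renewal of BFU-E.

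Promoter windows of 3 of the 5 genes were searched for the hexamer AGAACA, the half-site of the elements that the receptor binds as a pair. Windows (250 bases before to 50 after a start, RefSeq, build GRCm38.p6) were at hand for 3 starts of Tsc22d3 and 1 each of Zfp36 and Zfp36l1, and the hexamer was found on either strand in 1 of these 5, 185 bases before a Tsc22d3 start. The 30 bases around it, at chrX:140600690-140600719 on the minus strand, are shown to place the match, with the reverse complement of the hexamer in capitals.
Tsc22d3: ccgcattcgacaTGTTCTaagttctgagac
The same hexamer was found in 6233 of 32851 promoter windows (19.0%), so a match in 1 of 5 windows is close to the share over all windows. The spaced core ACANNNTGT was found in 6.85% of all windows and in none of the 5. A match is a description of letters and not a binding site. In the same build Tsc22d3 lies at chrX:140539528-140600522, Zfp36 at chr7:28376784-28379228, Zfp36l1 at chr12:80107760-80113013 and Zfp36l2 at chr17:84183924-84187947.

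The table held 7863 cells, all with a barcode shared by the antibody library, and 58606632 UMIs (molecules counted once by their unique molecular identifier), with a median of 5707 per cell and a range of 2510 to 38047. After quality limits and doublet calls 7215 cells were kept, 6404 of them with low levels of 5 lineage antibodies, and 6187 of these fell in 1 of 6 stages. Ter119-low cells were divided by rising CD71, the transferrin receptor, into S0-low (1525 cells), S0-medium (1036 cells) and S1 (607 cells). Ter119-intermediate cells with CD71 past the border between S0-medium and S1 formed S2 (1291 cells). The 217 Ter119-intermediate cells with less CD71 were in no stage. Ter119-high cells were divided by falling CD71 into S3 (846 cells) and S4/S5 (882 cells). As a check of the gates, Tfrc, which encodes CD71, had a mean level of 96.4 CPM in S0-low and 334 in S2. A level is given here as the mean over cells of CPM, the UMIs of a gene per 1000000 UMIs of its cell. Globin genes took 1.05% of the UMIs in S0-low, 2.80% in S1, 13.2% in S2, 38.4% in S3 and 64.3% in S4/S5, so all other genes shared a smaller remainder in the late stages.

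The labels name erythroid differentiation and no single cell type, and S0-low was mixed. It held 153 cells (10.0%) of clusters named from markers of other cell types, of which 111 were hepatocyte-like, 29 megakaryocyte-like, 10 myeloid-like and 3 macrophage-like, against 1 to 3 such cells in each later stage. A further 309 of its cells belonged to an unnamed cluster led by Ifitm1, Hmga2 and Cd34. Another 334 belonged to an erythroid-progenitor-like cluster with Car1 and Myb among its leading genes. That name rests on 4 of 7 markers raised and depends on the clustering. With a coarser clustering no cluster took it, and with a finer one it went to 679 cells led by Acp5, Mrap and Apol8. The summed level of 9 hepatocyte markers was 9242 CPM in S0-low and 411 to 1143 CPM in the other stages. With 1 library there is no replicate error: the 95% intervals in parentheses cover counting error only, not differences between animals or libraries, and no test was run.

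Nr3c1, which encodes the receptor, had its highest stage level in S0-low and was lower in CPM at each next stage with these gates. S0-low cells had a mean level of 49.7 CPM (45.1 to 54.7), S0-medium cells 42.3 (37.9 to 47.4) and S1 cells 29.1 (24.5 to 34.9). After Ter119 appeared the level was 15.7 CPM (12.9 to 19.0) at S2, 10.0 (7.20 to 13.9) at S3 and 5.27 (3.16 to 8.54) at S4/S5, the last from 23 UMIs in 882 cells. The intervals overlapped between S0-low and S0-medium, between S2 and S3 and between S3 and S4/S5, and the other neighbours stood apart. The level at S1 was 0.586 times that of S0-low (0.480 to 0.711), and the level at S3 was 0.344 times that of S1 (0.237 to 0.490). The first ratio turned with the gates: it was 1.24 with antibodies on a log10 scale and 1.04 with antibodies scaled within each cell, settings that placed 568 and 643 cells in S0-low in place of 1525. The ratio of S0-medium to S0-low, 0.852 (0.736 to 0.985) here, was 1.48 and 1.58 under the same settings and 1.47 with Gaussian mixture classes. The ratio of S3 to S1 was 0.532 with globins left out of the denominator, 0.807 with median-of-ratios size factors and 0.204 as UMIs per cell. The step from S2 to S3 was 0.639 (0.437 to 0.918) in CPM and 1.07 with median-of-ratios size factors, which set the middle of the genes in each stage equal.

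Tsc22d3, which encodes a leucine zipper protein also known as GILZ, was low from S0-medium on. S0-low cells had 11.2 CPM (9.005 to 13.9), S0-medium cells 4.76 (3.19 to 7.20) and S1 cells 2.98 (1.65 to 5.85). In the 3 later stages the level was 1.90, 1.68 and 1.92 CPM, from 24, 9 and 7 UMIs. S0-low stood above all other stages without overlap, and the intervals from S0-medium to S4/S5 each overlapped the next. The ratio of S1 to S0-low was 0.267 (0.143 to 0.467), and that of S3 to S1 was 0.565 (0.199 to 1.46), an interval that holds 1. Without the named clusters and 2 smaller unnamed ones, a choice made after seeing the data, the ratio of S1 to S0-low was 0.310 (0.164 to 0.551). With the cells of the cluster led by Ifitm1, Hmga2 and Cd34 left out as well, it was 0.642 (0.319 to 1.23), and that of S0-medium to S0-low was 1.02.

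Zfp36, which encodes tristetraprolin, the founding member of the family, was at the limit of the depth in erythroid stages. It had 30 UMIs in the 1525 cells of S0-low, a level of 2.76 CPM (1.75 to 4.39), and 2 to 10 UMIs in each later stage. Later levels lay between 0.304 CPM (0.0250 to 2.1) at S3 and 1.61 CPM (0.491 to 4.11) at S4/S5. These later intervals all overlapped, so no order of the later stages was detectable. The ratio of S1 to S0-low was 0.285 (0.0893 to 0.745), and it was 1.31 once the cells of the Cd34-led cluster were left out as above. Those cells held 14 of the 30 S0-low UMIs and S1 had 6 UMIs, so the ratio of 1.31 gives no direction.

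Zfp36l1 had much the same level in all Ter119-low stages. S0-low cells had 25.5 CPM (22.1 to 29.4), S0-medium cells 21.4 (18.1 to 25.4) and S1 cells 22.6 (18.5 to 28.0), with overlapping intervals. The level was lower at S2 with 12.9 CPM (10.6 to 15.9), S3 with 8.41 (6.01 to 11.9) and S4/S5 with 4.37 (2.49 to 7.40). The ratio of S1 to S0-low was 0.887 (0.694 to 1.13), and 1.03 without the cells of named non-erythroid clusters. From S1 to S3 the ratio was 0.372 (0.252 to 0.541) in CPM but 1.03 with median-of-ratios size factors, so its direction depended on the scaling.

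Zfp36l2 was lower in CPM at each next stage. S0-low cells had 181 CPM (172 to 190.4), S0-medium cells 95.2 (88.8 to 102) and S1 cells 71.8 (64.7 to 80.1). The level was 51.0 CPM (46.0 to 56.5) at S2, 35.5 (29.995 to 42.1) at S3 and 20.2 (15.8 to 25.6) at S4/S5. No neighbouring intervals overlapped. The step from S0-low to S0-medium was 0.527 (0.483 to 0.574) and that from S0-medium to S1 was 0.754 (0.665 to 0.854), which together gave a ratio of S1 to S0-low of 0.397 (0.354 to 0.446). This early difference kept its direction under all 16 alternatives of gates, filters and scaling, with ratios from 0.318 to 0.601. The later one did not: the ratio of S3 to S1 was 0.495 (0.405 to 0.601) in CPM, 0.873 with globins left out of the denominator and 1.10 with median-of-ratios size factors.

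**Figure D1:**
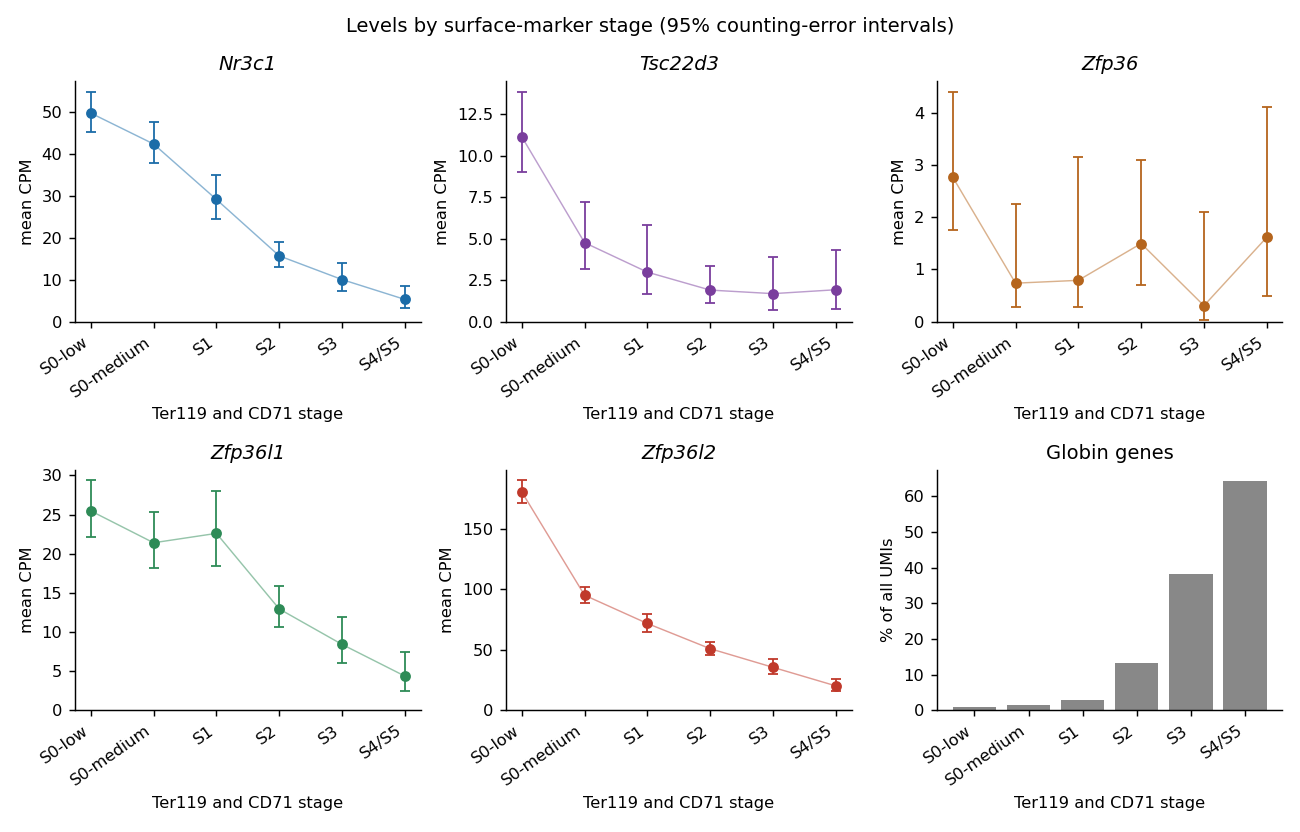
Mean CPM (vertical axis, from 0) of each gene in the 6 stages set by Ter119 and CD71 (horizontal axis), with 95% counting-error intervals, and the percentage of all UMIs taken by globin genes as bars. On this scale and with these gates Nr3c1 and Zfp36l2 are lower at each next stage. Zfp36l1 is level up to S1, and globins reach 64.3% of UMIs in S4/S5. For Nr3c1 the early order turns with the gates. Its ratio of S0-medium to S0-low is 1.58 with antibodies scaled within each cell, and that of S1 to S0-low is 1.24 with antibodies on a log10 scale. With median-of-ratios size factors the ratio of S3 to S2 is 1.07 for Nr3c1, 1.27 for Zfp36l1 and 1.14 for Zfp36l2.

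These ratios were read against all genes by their pooled ratio, the summed UMIs of a gene over those of all genes, for genes with at least 50 UMIs over both stages. The shares given here keep the S0-low cells of the named non-erythroid clusters. Without those cells the pooled S0-low level was 52.9 CPM in place of 51.1 for Nr3c1 and 180 in place of 166 for Zfp36l2. It was 10.4 in place of 10.7 for Tsc22d3 and 19.1 in place of 23.8 for Zfp36l1. Between S0-low and S1, 18.2% of 9582 genes had a ratio of at most 0.5 and 3.38% of at least 2. Of the 4 members with as many UMIs, Tsc22d3 and Zfp36l2 were at most 0.5 and 0 were at least 2. The median gene had a ratio of 0.873 there, and relative to it Tsc22d3 was at 0.327, Zfp36l2 at 0.519, Nr3c1 at 0.662 and Zfp36l1 at 1.07. Of the steps within this interval, S0-medium over S0-low put 13.0% of genes at most 0.5 and 1.49% at least 2, and Tsc22d3 alone of 4 members was at most 0.5. S1 over S0-medium put 1.9% and 0.717% of genes there and 0 of 4 members.

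Between S1 and S3, 54.2% of 7573 genes were at most 0.5 and 4.49% at least 2, with a median ratio of 0.473. With globins left out of the denominator these shares were 20.5% and 9.47%, and relative to the median gene they were 7.06% and 15.1%. Nr3c1 and Zfp36l1 were at most 0.5 among the 3 members with 50 UMIs, a share near that of all genes. Relative to the median gene, Nr3c1 was at 0.828, Zfp36l1 at 1.06 and Zfp36l2 at 1.13. S2 over S1 put 8.81% of genes at most 0.5 and 2.04% at least 2, S3 over S2 put 23.0% and 2.14% there, and 0 of 3 members passed either limit in these steps. S4/S5 over S3 put 48.0% of genes at most 0.5 and 0.328% at least 2, with Zfp36l1 as the 1 member of 3 at most 0.5.

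From S0-low to S3, 65.4% of 9419 genes were at most 0.5 and 5.73% at least 2, against 41.4% and 10.2% with globins left out and 21.6% and 20.1% relative to the median gene. All 4 members with 50 UMIs were at most 0.5. Relative to the median gene they were at 0.502 for Tsc22d3, 0.609 for Nr3c1, 0.651 for Zfp36l2 and 1.26 for Zfp36l1. From S0-low to S4/S5, where 87.2% of genes were at most 0.5 and 3.63% at least 2, the same 4 were at most 0.5.

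CD71 was then used as a finer scale. Lineage-low, Ter119-low cells outside the named non-erythroid clusters were ordered by CD71 and cut into 10 groups of 301 cells. Median antibody counts ran from 14 in group 1 to 1511 in group 10. The groups kept the unnamed clusters. In S0-low the median CD71 count was 19 in the Cd34-led cluster and 24 in the cluster led by Lsp1, Ccr2 and Ifitm3. The levels of both are given below, and their part in the levels along CD71 was not tested. Nr3c1 was not highest where CD71 was lowest. It was 36.0 CPM (25.8 to 49.4) in group 1 and 42.3 (33.2 to 54.0) in group 2, highest at 64.3 (52.7 to 78.5) in group 3, and then 59.7, 54.9, 51.4, 40.1, 29.4, 34.2 and 23.8 (18.2 to 31.95) in groups 4 to 10. Group 3 stood above group 1 and above group 10 without overlap. The S0-low gate, which ended at an antibody count of 236.5, joined cells at the highest Nr3c1 levels with cells below them.

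Zfp36l2 did follow CD71. It was 312 CPM (281 to 345) in group 1, 238 (216 to 262) in group 2 and 138 (121 to 157) in group 3, and from there lower in each next group down to 68.3 (58.4 to 80.4) in group 10. Groups 1, 2 and 3 stood apart, and from group 3 on each group overlapped the next.

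Tsc22d3 and Zfp36 were highest in the groups with least CD71. The S0-low cells of the Cd34-led cluster, which these groups kept, had Tsc22d3 at 25.5 CPM and Zfp36 at 7.04. Tsc22d3 was 21.7 CPM (14.2 to 32.5) in group 1, above every group from 3 to 10 without overlap, and 14.7 (10.03 to 22.2) in group 2, while groups 3 to 10 lay between 1.504 and 6.93 CPM. Zfp36 was 6.85 CPM (3.13 to 14.1) in group 1, 2.51 in group 2 and at most 1.47 thereafter, with 0 to 5 UMIs per group. In group 5 it had 0 UMIs, where the upper bound of the mean level is 4.86 CPM. Zfp36l1 lay between 18.1 and 27.2 CPM in all 10 groups, and these intervals all overlapped.

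Ter119-high cells were cut by falling CD71 into 5 groups of 345 cells. Zfp36l2 was 38.7 CPM (30.5 to 49.4) where CD71 was highest and 13.1 (8.02 to 21.1) where it was lowest, a ratio of 0.339 (0.196 to 0.562). Scaling moves this comparison: between S3 and S4/S5, the stages of the same cells, the median gene had a pooled ratio of 0.508, and the ratio of Zfp36l2 was 0.568 in CPM and 1.03 with median-of-ratios size factors. The 13.1 CPM also lay at the 13.2 CPM that free RNA is estimated below to give in S4/S5. For Nr3c1 these levels were 11.7 and 5.96 CPM, a ratio of 0.511 (0.197 to 1.196). For Zfp36l1 they were 9.33 and 5.42 CPM, a ratio of 0.580 (0.215 to 1.38). The last 2 intervals hold 1, so no difference of Nr3c1 or Zfp36l1 was detectable between these 2 end groups. Between S3 and S4/S5 the CPM ratio was 0.527 (0.288 to 0.930) for Nr3c1 and 0.519 (0.270 to 0.949) for Zfp36l1. Scaling moved these as well, to 0.998 for Nr3c1 with median-of-ratios size factors and 1.06 for Zfp36l1 with globins left out of the denominator.

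**Figure D2:**
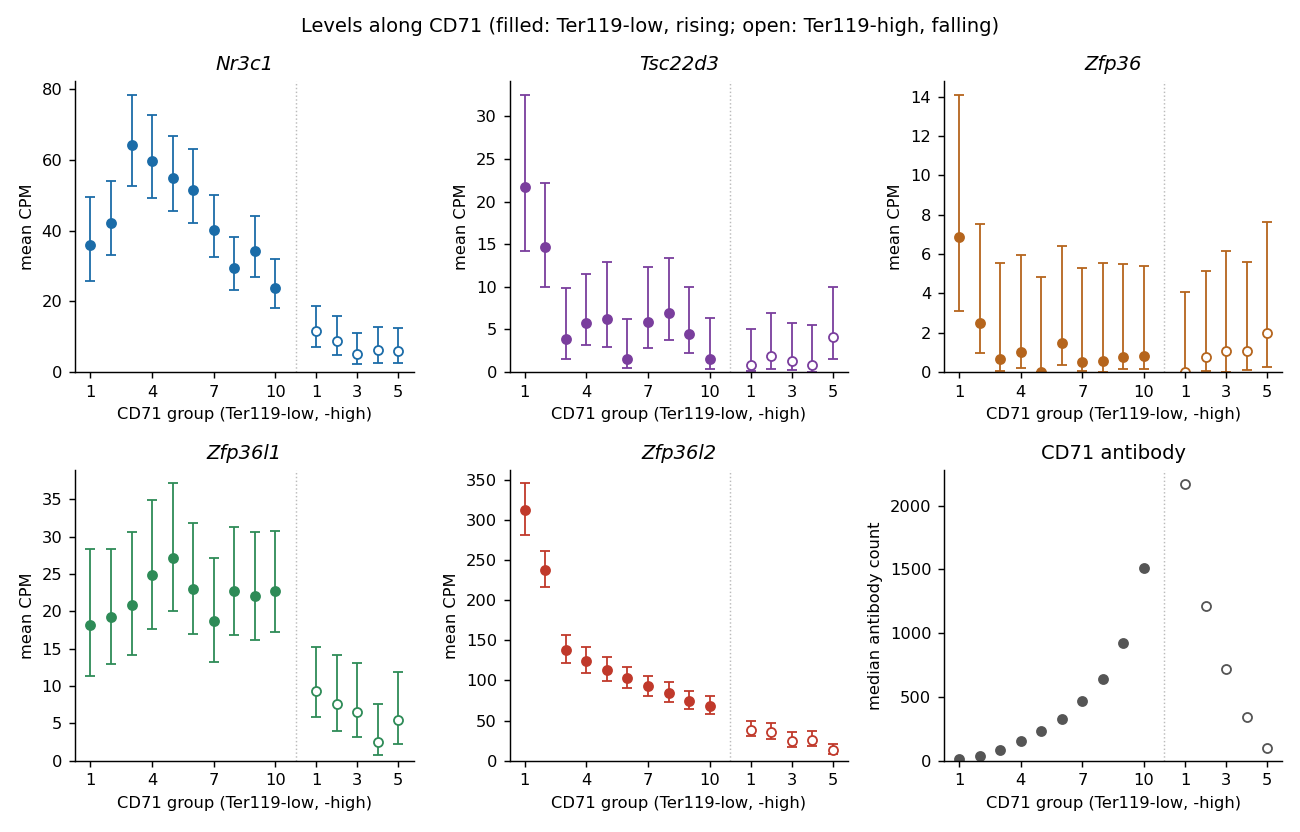
Mean CPM (vertical axis, from 0) with 95% counting-error intervals in 10 groups of Ter119-low cells by rising CD71 (filled) and 5 groups of Ter119-high cells by falling CD71 (open), and the median CD71 antibody count of each group. Nr3c1 is highest in group 3 at 64.3 CPM, Zfp36l2 goes from 312 to 68.3 CPM over the 10 groups, and Zfp36l1 stays between 18.1 and 27.2 CPM.

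S0-low was resolved by clusters, which were drawn from the same counts, so that the levels describe them. Nr3c1 was at 70.8 CPM (60.2 to 83.7) in the 334 S0-low cells of the Car1 and Myb cluster and at 16.7 (10.6 to 25.9) in the 309 of the Cd34-led cluster, which was 0.235 times as high (0.145 to 0.365). Zfp36l2 had the reverse order, at 317 CPM (288 to 348) in the Cd34-led cells and 219.8 (200.4 to 242) in the Car1 and Myb cells. Tsc22d3 also had the reverse order, at 25.5 CPM (18.3 to 35.7) in the Cd34-led cells and 6.42 (3.72 to 11.9) in the Car1 and Myb cells, a ratio of 3.97 (2.19 to 7.51). Between these clusters the receptor gene and its responsive gene thus had opposite orders. Of the other S0-low cells, the 442 and 197 of the largest unnamed clusters had Nr3c1 at 61.0 and 62.8 CPM and Tsc22d3 at 3.47 and 4.75, and the 69 of a cluster led by Lsp1, Ccr2 and Ifitm3 had Nr3c1 at 20.7 (7.48 to 50.01) and Tsc22d3 at 30.9 (13.8 to 63.5). Zfp36 was at 7.04 CPM from 14 UMIs in the Cd34-led cells and 0.735 CPM from 3 UMIs in the Car1 and Myb cells, a ratio of 9.59 (2.55 to 53.6). For Zfp36l1 the ratio of the same clusters was 1.06 (0.546 to 1.98).

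cKit, the receptor of stem cell factor, marks early progenitors and was measured by its own antibody. Within S0-low and outside the named clusters, 791 cells were cKit-high, with a median of 8342 UMIs, and 581 cKit-low, with a median of 4354. Zfp36l2 was at 220.4 CPM (207 to 234) in cKit-high cells and 154 (139 to 171) in cKit-low cells, a ratio of 1.43 (1.27 to 1.62). Tsc22d3 was at 13.9 and 7.02 CPM, a ratio of 1.99 (1.14 to 3.65). Zfp36l1 was lower in cKit-high cells, at 16.2 CPM (12.9 to 20.5) against 30.04 (23.5 to 38.1), a ratio of 0.538 (0.389 to 0.747). Nr3c1 was at 49.4 and 53.1 CPM, a ratio of 0.931 (0.757 to 1.15). The cKit-high class held 227 cells of the Cd34-led cluster and 296 of the Car1 and Myb cluster, the low and the high end of Nr3c1 given above. The cKit-low class held 82 and 38 cells of these clusters. In S0-low cells of the cluster led by Lsp1, Ccr2 and Ifitm3, the median cKit count was 127 and Zfp36l1 was at 48.9 CPM. The part of cluster make-up in the cKit differences of Zfp36l2, Tsc22d3 and Zfp36l1 was not tested.

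**Figure D3:**
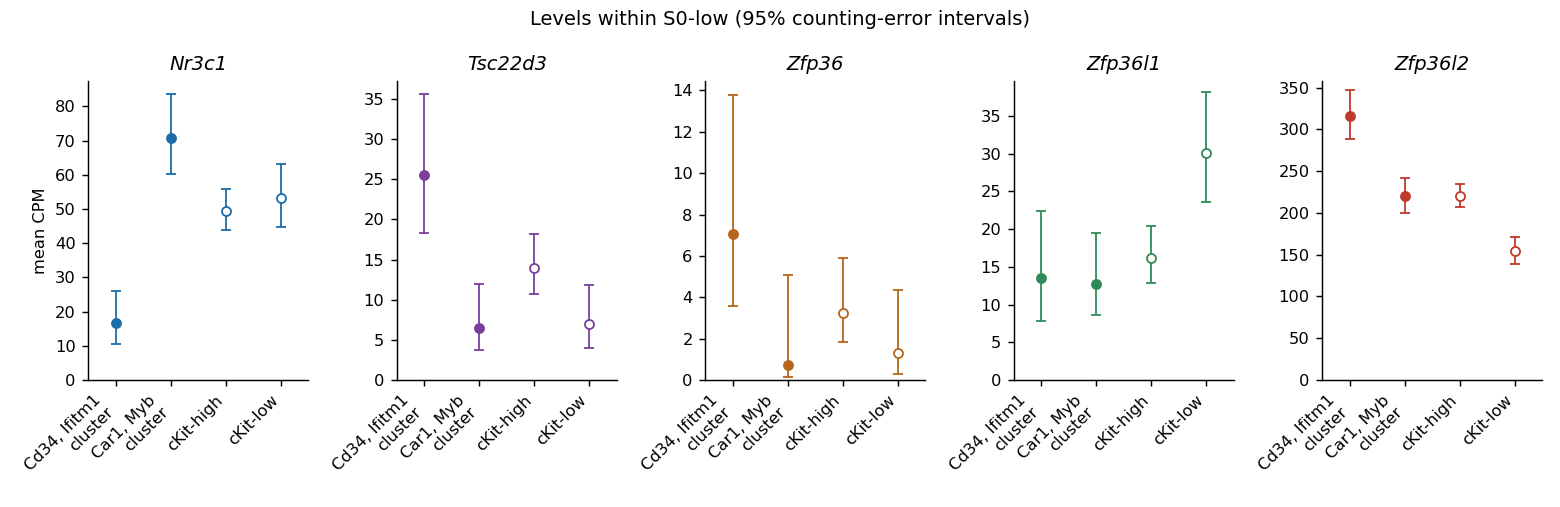
Mean CPM (vertical axis, from 0) with 95% counting-error intervals within S0-low, for the Cd34-led cluster and the Car1 and Myb cluster (filled) and for the cKit-high and cKit-low classes (open). Nr3c1 is at 16.7 CPM in the Cd34-led cells and 70.8 CPM in the Car1 and Myb cells, whereas Tsc22d3 and Zfp36l2 are higher in the Cd34-led cells.

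Non-erythroid cells of the same livers were taken from all 7215 kept cells as 188 hepatocyte-like, 144 megakaryocyte-like, 119 myeloid-like and 79 macrophage-like cells, and set beside the 1372 S0-low cells outside these clusters. Macrophage-like cells had a median Ter119 antibody count of 73, against 51 in S2. It was 8.5 in hepatocyte-like, 8 in megakaryocyte-like and 7 in myeloid-like cells. Whether erythroid material added to the macrophage-like levels was not tested. Nr3c1 was found in all 4 classes. It was at 32.4 CPM (24.4 to 44.1) in hepatocyte-like, 23.4 (14.6 to 38.5) in megakaryocyte-like, 32.4 (21.0 to 51.5) in myeloid-like and 43.4 (26.7 to 71.6) in macrophage-like cells, against 51.0 (46.1 to 56.4) in S0-low. The 4 classes overlapped one another. The ratio to S0-low was 0.635 (0.471 to 0.843) for hepatocyte-like cells, and for macrophage-like cells it was 0.852 with an interval that holds 1 (0.518 to 1.33).

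Tsc22d3 was highest in myeloid-like cells, at 75.8 CPM (54.5 to 105) against 11.01 (8.72 to 13.9) in S0-low, a ratio of 6.89 (4.62 to 10.1). Macrophage-like cells were at 31.2 CPM (17.8 to 56.4), megakaryocyte-like cells at 22.8 (13.7 to 38.2) and hepatocyte-like cells at 10.48 (6.69 to 18.5), the last overlapping S0-low. With a coarser clustering, in which 793 cells took the myeloid-like name in place of 119, Tsc22d3 was at 34.8 CPM in them. Most of these 793 cells belonged to other clusters above.

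The Zfp36 genes differed between the classes. Zfp36 was at 27.7 CPM (13.6 to 54.6) in macrophage-like cells, 11.4 times (4.81 to 25.7) the S0-low level of 2.43, and at 22.8 CPM (14.3 to 37.6) in megakaryocyte-like cells, 9.40 times (4.81 to 18.6) that level. Zfp36l1 was at 68.9 CPM (56.1 to 85.4) in hepatocyte-like cells and 59.3 (39.2 to 90.6) in macrophage-like cells, 3.13 (2.40 to 4.05) and 2.69 (1.72 to 4.06) times the S0-low level of 22.0. Myeloid-like cells had 2 UMIs of Zfp36l1 in 119 cells, or 2.62 CPM (0.281 to 15.5). The level was 22.4 CPM in the 793 cells that the coarser clustering named so.

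Zfp36l2 was at 188 CPM (156 to 227) in myeloid-like cells, where its ratio to the S0-low level of 192 (182 to 203) was 0.977 (0.806 to 1.18). It was lower in megakaryocyte-like cells at 116 CPM (96.4 to 142) and macrophage-like cells at 99.2 (70.5 to 139), and lowest in hepatocyte-like cells at 29.1 (22.3 to 39.7), 0.152 times S0-low (0.115 to 0.196). The hepatocyte-like and macrophage-like levels of all 5 genes were equal under a coarser and a finer clustering. The megakaryocyte-like levels were not: the coarser one gave that name to 537 cells, with Nr3c1 at 56.2, Tsc22d3 at 12.8, Zfp36 at 6.58 and Zfp36l2 at 192 CPM, and the finer one gave it to 95 cells, with Zfp36l2 at 53.7 CPM. The clustering used above gave it to 144 cells, so most of the 537 cells belonged to other clusters there. In the coarser clustering no cluster had Cd34, or Car1 and Myb, among its leading genes. Which of its clusters, named ones included, took the cells of those 2 clusters was not followed here.

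Unnamed clusters held further high levels. In 205 cells led by Lsp1, Ccr2 and Ifitm3, Zfp36l2 was at 209 CPM (183 to 238), Zfp36l1 at 50.3 (37.5 to 67.4), Tsc22d3 at 33.7 (23.4 to 48.3) and Zfp36 at 20.9 (13.6 to 32.4). In 64 cells led by Mest, Sparc and Serpinh1, Zfp36l1 was at 143 CPM (107 to 192), its highest level among the 16 clusters. A cluster of 73 cells led by the embryonic globin genes Hbb-y and Hba-x, which primitive erythroid cells express, had 0 UMIs of Nr3c1 and 0 of Zfp36, where the upper bound of the mean level is 19.6 CPM. Zfp36l2 was at 61.6 CPM (38.8 to 97.2) in the same cells.

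**Figure D4:**
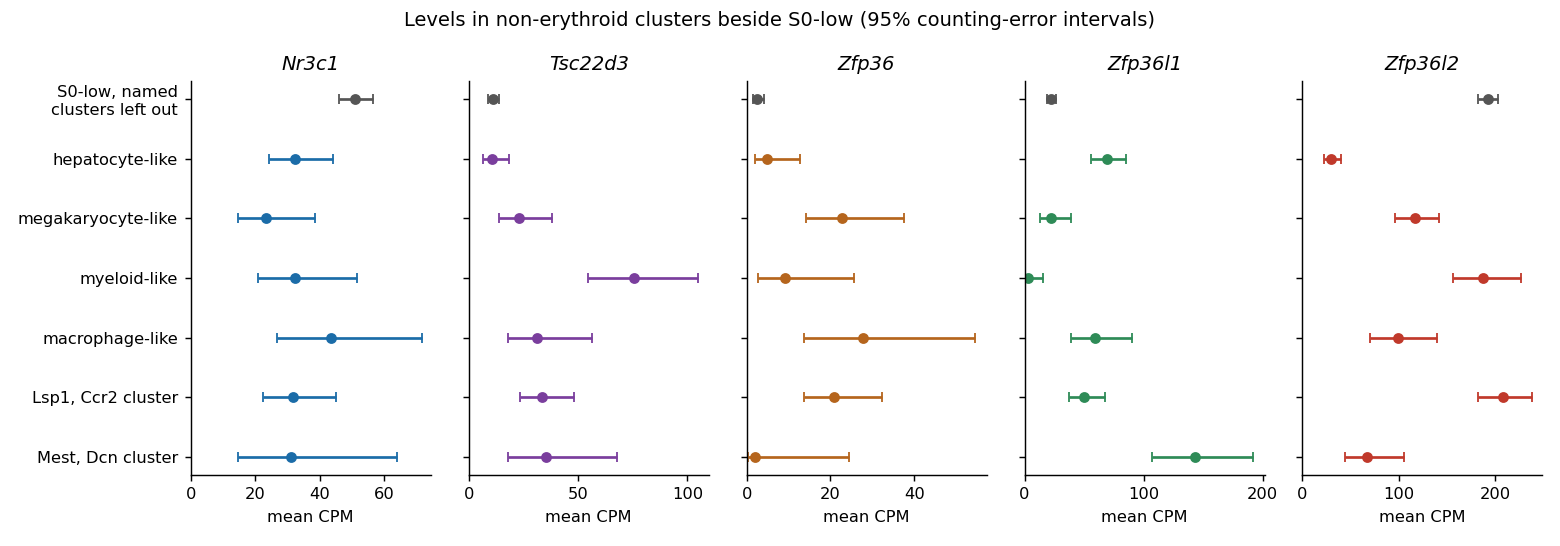
Mean CPM (horizontal axis, from 0) with 95% counting-error intervals in S0-low without the named clusters (grey) and in 6 non-erythroid or unnamed clusters (coloured). Tsc22d3 is highest in myeloid-like cells at 75.8 CPM, Zfp36l1 in the Mest-led cluster at 143 CPM, and Zfp36l2 is lowest in hepatocyte-like cells at 29.1 CPM.

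The share of cells with a UMI of each gene was taken after thinning every cell to 2000 UMIs, which no cell was short of. Zfp36l2 was detected in 27.0% of S0-low cells (24.8 to 29.3), 12.2% of S1 cells (9.70 to 15.1) and 7.09% of S3 cells (5.46 to 9.04). Nr3c1 was detected in 10.0% (8.57 to 11.7), 5.93% (4.19 to 8.12) and 1.89% (1.08 to 3.05) of the same cells. These shares had the order of the CPM levels. Both are taken per fixed number of UMIs with globins included, so the shares are not a separate check of the levels. Zfp36l1 was detected in 4.72%, 3.79% and 1.65%, and Tsc22d3 in 2.36%, 0.494% and 0.236%. Zfp36 was detected in 0.590% of S0-low and 0 of 846 S3 cells (upper bound 0.435%). S4/S5 cells, with a median depth of 3940.5 UMIs against 6154 in S0-low, gave 3.74% for Zfp36l2 and 1.13% for Nr3c1. At full depth the shares in S0-low were 59.9% for Zfp36l2, 29.0% for Nr3c1, 15.02% for Zfp36l1, 7.61% for Tsc22d3 and 1.84% for Zfp36.

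Within thinned S0-low cells outside the named clusters, Nr3c1 was detected in 9.32% (6.65 to 12.6) of 397 cells with a Zfp36l2 UMI and in 10.97% (9.08 to 13.1) of 975 cells without one. Tsc22d3 was detected in 4.28% (2.51 to 6.77) of the former and 1.44% (0.787 to 2.40) of the latter. The first pair of intervals overlapped and the second did not. These cells included the 309 of the Cd34-led cluster, where Zfp36l2 was at 317 CPM and Tsc22d3 at 25.5. The part of that cluster in the difference of Tsc22d3 was not tested.

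Free RNA in the droplets was estimated from hepatocyte markers, which erythroid cells should lack. Their summed level in stage cells outside the named clusters, as a share of that in all barcodes, was 4.52% in S0-low, 4.97% in S1, 9.40% in S3 and 13.6% in S4/S5. If free RNA has the composition of all barcodes, it gives 1.44 CPM of Nr3c1 in S0-low, where 49.7 was measured, and 4.34 in S4/S5, where 5.27 (3.16 to 8.54) was measured. The estimate for S4/S5 was 3.03 CPM of Zfp36l1 against a measured 4.37 (2.49 to 7.40) and 1.096 of Tsc22d3 against 1.92 (0.767 to 4.32). The S4/S5 levels of these 3 genes can thus not be told from this background. The same holds at S3 for Tsc22d3, with an estimate of 0.759 CPM against 1.68 (0.698 to 3.93), and for Zfp36, with 0.284 against 0.304 (0.0250 to 2.1). For Zfp36l2 the estimate was 13.2 CPM against a measured 20.2 (15.8 to 25.6), which lies above it.

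Partners and regulators of the 5 genes were followed in 8 lists, counted by the pooled ratio of S3 to S0-low as above, against 65.4% of all genes at most 0.5, 5.73% at least 2 and a median of 0.371. Counts relative to the median gene stand against the shares of all genes relative to it that are given above for S0-low to S3. The lists were chosen with earlier results of these data known, so their counts beside those of all genes are a description. No list was tested. A ratio given for a single gene is that of its mean CPM. S0-low held the non-erythroid and Cd34-led cells given above, and their part in the S0-low level of any list gene was not tested.

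Of 12 receptor partners, 11 were at most 0.5 and 0 at least 2, with a median of 0.258, and relative to the median gene 2 and 0. Hsp90ab1, a chaperone that holds the receptor ready for hormone, was at 2726 CPM in S0-low and 379 in S3, a ratio of 0.139 (0.132 to 0.146). The co-chaperone Ptges3, also called p23, was at 519 and 177 CPM. The coactivator Ncoa3 was at 29.5 CPM in S0-low, 4.92 in S1 and 1.91 in S3, a ratio of S3 to S0-low of 0.0646 (0.0304 to 0.122). Its pooled level was 21.0 CPM in S0-low and 5.31 in S0-medium, against 98.5 in megakaryocyte-like and 100.1 in macrophage-like cells. The part of non-erythroid and Cd34-led cells in its S0-low level was not tested. The corepressor Ncor1 was at 195 and 83.9 CPM, a ratio of 0.430 (0.382 to 0.483). Fkbp5, a co-chaperone that glucocorticoids induce, was at 15.9 CPM in S0-low, 7.09 in S1 and 1.37 in S3.

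Glucocorticoid-responsive genes split, with 8 of 12 at most 0.5, 2 at least 2 and a median of 0.170, and relative to the median gene 6 and 4. Dusp1, a phosphatase of MAP kinases, was at 6.98 CPM in S0-low, 40.5 in S1, 94.5 in S2 and 100.1 in S3, a ratio of 14.3 (10.6 to 19.8). The metallothionein Mt2 was at 270.4 and 592 CPM, a ratio of 2.19 (2.07 to 2.32). On the other side, the cell cycle inhibitor Cdkn1c was at 101 CPM in S0-low and 5.66 in S3, the transcription factor Klf9 at 14.8 and 0.561, and the G protein regulator Rgs2 at 10.8 and 0.646. Cdkn1c was at 4.28 CPM already in S0-medium, and the sum of hepatocyte markers went from 9242 to 466 CPM over the same step; the part of the hepatocyte-like cells in the level of Cdkn1c was not tested. The list held both directions.

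Of 13 genes linked to progenitor self-renewal, 11 were at most 0.5 and 0 at least 2, with a median of 0.132, and relative to the median gene 8 and 2. Between S0-low and S1, 9 of 14 were at most 0.5, against 18.2% of all genes. Gata2, a transcription factor of early progenitors, was at 39.3 CPM in S0-low, 2.08 at S0-medium and 0.358 at S1. Cd34 was at 83.7, 1.78 and 2.39 CPM in the same stages. S0-low also held the 309 Cd34-led cells, and their part in these ratios was not tested. Lin28b, a fetal RNA-binding protein, was at 24.8 CPM in S0-low, 21.1 in S1 and 5.86 in S3. Gfi1b and Zfpm1, regulators of erythroid transcription, had ratios of S3 to S0-low of 0.911 (0.778 to 1.06) and 0.892 (0.767 to 1.04).

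The machinery that Zfp36 proteins recruit was followed as deadenylation and decapping factors and as the RNA exosome. Of 23 deadenylation and decapping genes, 17 were at most 0.5 and 0 at least 2, with a median of 0.327, but relative to the median gene 1 and 2. Between S0-low and S1 none of the 23 was past 2-fold, against 18.2% of all genes at most 0.5 and 3.38% at least 2. Pan3 and Cnot6l, of the Pan2-Pan3 and Ccr4-Not deadenylases, were at 69.6 and 39.8 CPM in S0-low and 11.3 and 3.73 in S3. Pabpc1, the poly(A)-binding protein, was at 1772 CPM in S0-low, 2664 in S3 and 3922 in S4/S5, a ratio of S3 to S0-low of 1.504 (1.46 to 1.54). Of 12 exosome genes, 9 were at most 0.5, with a median of 0.296, and relative to the median gene 1 was at most 0.5 and 2 at least 2. Exosc5 was at 148 and 16.9 CPM, and Skiv2l, a helicase that serves the cytoplasmic exosome, had a ratio of 0.909 (0.600 to 1.35).

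Of 14 other proteins that bind AU-rich or 3′ end elements, 6 were at most 0.5 and 1 at least 2, with a median of 0.532, and relative to the median gene 0 and 4. Ybx1, an abundant mRNA-binding protein, was at 3540 CPM in S0-low and 453 in S3, and Tia1 at 92.7 and 12.1. Cpeb4, a cytoplasmic polyadenylation factor, was at 6.15 CPM in S0-low, 35.3 in S1, 56.7 in S2 and 82.5 in S3, a ratio of 13.4 (9.88 to 18.5).

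Transcripts with AU-rich elements, the class that the family binds, did not share a direction. Of 15, 9 were at most 0.5 and 5 at least 2, with a median of 0.383, and relative to the median gene 7 and 5. Btg2, an antiproliferative factor, was at 17.8 CPM in S0-low, 121 in S1, 301 in S2 and 317 in S3, a ratio of 17.8 (14.7 to 21.7). The kinase gene Pim1 was at 144 and 660.3 CPM, a ratio of 4.58 (4.25 to 4.94), and Dusp1 belongs to this list as well. On the other side, Ccnd1, which encodes cyclin D1, was at 37.8 CPM in S0-low, 1.37 in S1 and 2.40 in S3, and the survival gene Bcl2 at 12.5, 0.708 and 0.188. The part of non-erythroid and Cd34-led cells in these 2 S0-low levels was not tested. From S1 to S3, 2 of 9 were at most 0.5 and 5 at least 2, against 54.2% and 4.49% of all genes. This list too was chosen with earlier results known, so these counts are no support for a shared rise.

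Of 11 kinases and adaptors that act on Zfp36 proteins, 10 were at most 0.5 and 0 at least 2, with a median of 0.280, and relative to the median gene 1 and 0. Mapkapk2, the kinase that phosphorylates tristetraprolin, was at 42.9 CPM in S0-low, 8.43 in S1 and 2.11 in S3, a ratio of S3 to S0-low of 0.0492 (0.0261 to 0.0848).

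**Figure D5:**
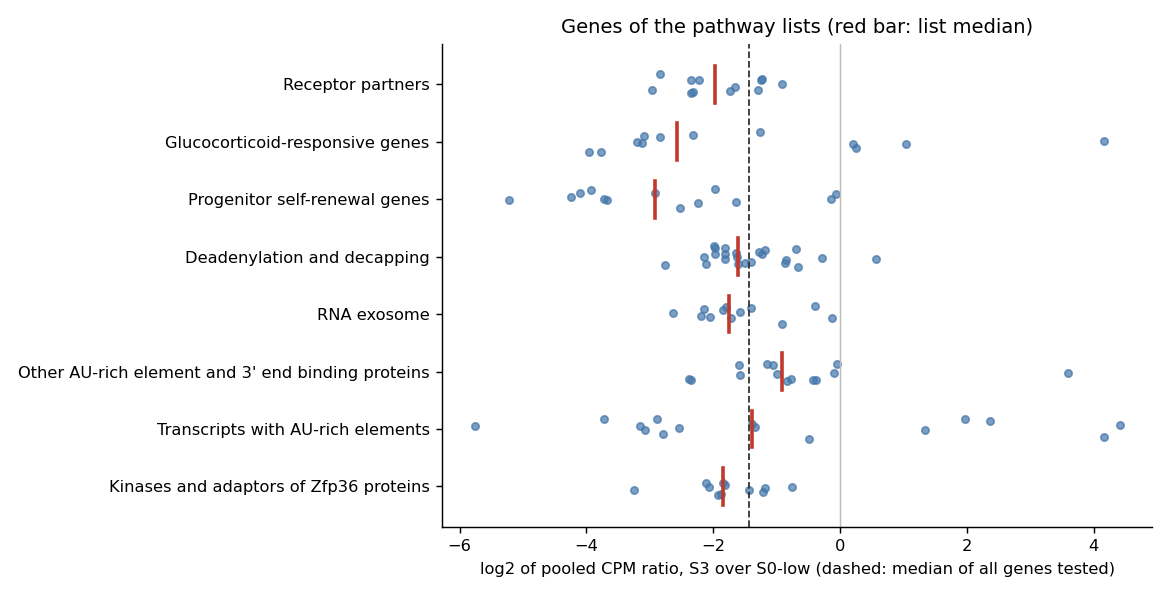
Log2 of the pooled CPM ratio of S3 to S0-low (horizontal axis) for each gene with at least 50 UMIs (points) in 8 lists (vertical axis), with the list medians in red and the median of all 9419 genes at -1.43 as a dashed line. Self-renewal genes have the lowest list median, a ratio of 0.132, and transcripts with AU-rich elements spread to both sides of 0.

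The genes with the most similar pattern were found over 10 populations, the 6 stages and 4 named classes, among 6973 genes with at least 500 UMIs, by the correlation of log2 (pooled CPM + 10). All points share 1 library, so these values are a description. For Nr3c1 the most similar were Adi1 (r = 0.987), 2700094K13Rik and Isyna1, and for Tsc22d3 they were Orai1 (r = 0.989), a calcium channel subunit, Prkcd and Tmem38b. For Zfp36 they were Ncoa3 (r = 0.975), one of the receptor's coactivators, Actn1 and Clec1b. Zfp36 and Tsc22d3, with 152 and 419 UMIs in all kept cells, were themselves below that minimum. The pooled level of Zfp36 was at most 2.56 CPM in the 6 stages, against 24.8 in megakaryocyte-like and 24.6 in macrophage-like cells, so these classes weigh most in its correlations. For Zfp36l1 they were Luzp1 (r = 0.957), Anapc2 and Coq6, and for Zfp36l2 they were B9d2 (r = 0.992), Hccs and Kmt2d. Among the 5 genes themselves r ranged from -0.09 between Zfp36l1 and Zfp36l2 to 0.711 between Nr3c1 and Zfp36l2.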

How the data were processed

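Reads of the 10x 3′ v2 cDNA library were mapped to mm10 with Cell Ranger by the authors, who deposited raw UMI counts for each gene in each cell, and the authors also deposited raw counts for each antibody from CITE-seq-Count. Whether antibody reads were collapsed by molecule is not given in the sources used here. A 3′ count does not scale with transcript length, but capture differs between genes, so levels were not compared between genes. Kept cells had between 300 and 5000 genes and no more than 9% mitochondrial UMIs (508 did not) and were not called doublets by the method of Scrublet, which marked 158 cells (2.01%) with 6% set as the rate. Antibody counts were scaled across cells by centered log ratios. Cells were lineage-low where the log of 5 summed antibody counts lay within 2 scaled median absolute deviations above its median. The stages were classes from k-means, 3 for Ter119, then 3 for CD71 among Ter119-low and 2 among Ter119-high cells, with borders of 24.5 and 88.5 counts of Ter119 and of 236.5, 768 and 733.5 of CD71. S2 held the Ter119-intermediate cells past the CD71 border of 768. The positions of the study's own gates were not at hand.

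Leiden clusters (resolution 0.8) were built from 2000 variable genes, 16 principal components and 30 neighbours after scaling cells to 10000 counts. A cluster was named when 3 of a type's markers stood in its top 10 genes, or when the share of markers past a log2 difference of 0.5 exceeded every other type's by 0.25. Intervals (95%) treat mean CPM as a weighted Poisson sum, ratios by effective counts and shares by the exact binomial (Clopper-Pearson) method. The upper bound for a level of 0 is that of the same weighted Poisson interval. The ratios with their intervals were tried on simulated Poisson counts, the model that the intervals assume. The gates were tried on antibody counts simulated for separate populations near the observed stages. Neither trial covers variation beyond that model or the place of the borders in these data. In each list, the genes at the 3 highest and 3 lowest ratios of S3 to S0-low could be named, and for each member the 3 genes with the most similar pattern. Cebpd, Cnot9 and Exosc6 were not analysed here. Some genes that this rule would name are not reported here. The members and lists were chosen with earlier results of these data known. Sequences and positions came from RefSeq (GRCm38.p6). The analysis ran on Python 3.11.15 with scanpy 1.11.5, scikit-learn 1.9.0, leidenalg 0.10.2, igraph 0.11.9, numpy 2.4.6, scipy 1.17.1, pandas 2.3.3 and matplotlib 3.10.9.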

Additional observations from a re-analysis of the deposited data

How the results depend on the processing

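No paired analysis was possible because the data are 1 library with no shared replicates. The ratios were recomputed under 16 alternatives of gates, filters and scaling, 2 of which were chosen after seeing the data, as were 2 further scalings of the share of genes. The cause of the changes was not tested. With antibodies on a log10 scale, the ratios of S1 to S0-low and of S0-medium to S0-low for Nr3c1 reversed to 1.24 and 1.48, and S3 over S1 was 0.235 for Nr3c1 and 0.358 for Zfp36l2. With antibodies scaled within each cell, the Nr3c1 ratios were 1.04 and 1.58, and Zfp36l2 was at 0.348 for S1 over S0-low and 0.342 for S3 over S1. With Gaussian mixture classes, Nr3c1 was at 0.860 for S1 over S0-low and 1.47 for S0-medium over S0-low, and Zfp36l2 at 0.318 for S1 over S0-low. With no lineage limit, Zfp36l1 was at 1.01 for S4/S5 over S3. With pooled CPM, Zfp36l2 was at 0.453 for S1 over S0-low.

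With globins left out of the denominator, S3 over S1 was 0.532 for Nr3c1, 0.563 for Zfp36l1 and 0.873 for Zfp36l2, Zfp36l2 was at 1.11 for S3 over S2 and Zfp36l1 at 1.06 for S4/S5 over S3. As UMIs per cell, S1 over S0-low was 0.766 for Nr3c1, 1.24 for Zfp36l1 and 0.601 for Zfp36l2, S3 over S1 was 0.204 for Nr3c1 and 0.278 for Zfp36l2, and Nr3c1 was at 1.15 for S0-medium over S0-low. With median-of-ratios size factors, Zfp36l2 was at 0.545 for S1 over S0-low, S3 over S1 was 0.807 for Nr3c1, 1.03 for Zfp36l1 and 1.10 for Zfp36l2, Zfp36l1 was at 1.16 for S3 over S0-low, S3 over S2 was 1.07 for Nr3c1, 1.27 for Zfp36l1 and 1.14 for Zfp36l2, and Zfp36l2 was at 1.03 for S4/S5 over S3. With free RNA subtracted, Zfp36l2 was at 0.394 for S3 over S1. With the Cd34-led cluster also left out, S1 over S0-low was 0.456 for Nr3c1, 0.642 for Tsc22d3, 1.31 for Zfp36 and 0.464 for Zfp36l2, and Tsc22d3 was at 1.02 for S0-medium over S0-low. The Zfp36 value rested on few UMIs and gives no direction.

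Without thinning, the share of cells with a UMI was 29.0% and 5.56% for Nr3c1, 7.61% and 1.06% for Tsc22d3, 15.02% and 5.32% for Zfp36l1 and 59.9% and 16.8% for Zfp36l2 in S0-low and S3, and 1.84% for Zfp36 in S0-low. With a minimum of 1 UMI, 5.92% of genes were 2-fold higher and 37.9% 2-fold lower in S1 than in S0-low, and 12.2% were 2-fold higher in S3 than in S1. With 200 UMIs, 10.2% were 2-fold lower in S1 than in S0-low. With globins left out, 9.47% of genes were higher and 20.5% lower in S3 than in S1, and 10.2% higher and 41.4% lower in S3 than in S0-low. Relative to the median gene these were 15.1% and 7.06%, and 20.1% and 21.6%. Depth limited Zfp36, with fewer than 50 UMIs over any 2 stages, and Tsc22d3 after S1.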
